A study of Bos taurus with 4 samples.

Results

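The genes described here encode the constitutive proteasome, the standing form of the protease complex that degrades ubiquitin-tagged proteins, as measured in bovine intramuscular preadipocytes. Members were all array probes named PSMA, PSMB, PSMC or PSMD with a number, leaving out PSMB8, PSMB9, PSMB10 and PSMB11. The rule uses names only and took 70 of 43653 probes, for 34 genes. Of these genes, 14 belong to the 20S core (7 alpha and 7 beta subunits) and 20 are named for the 19S regulatory particle. The 19S genes are 6 ATPases (PSMC), 11 non-ATPase subunits (PSMD) and 3 chaperones that help to assemble its base (PSMD5, PSMD9 and PSMD10).

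The cells are fat cell precursors from within skeletal muscle, grown to confluence and then held for 6 days in adipogenic medium. That medium contained insulin at 50 ng/mL, dexamethasone at 0.25 µM, octanoate at 5 mM, acetic acid at 10 mM and 10% fetal bovine serum, with penicillin and streptomycin, and was renewed every 2 days. The 4 groups were all-trans retinoic acid (ATRA) at 1 µM for 6 days, 9-cis retinoic acid (9cRA) at 1 µM for 6 days, 6 days with no retinoid (day 6 control), and cells taken at day 0. ATRA and 9cRA are stereoisomers of the acid form of vitamin A. Each group is 1 sample in the labels with 3 arrays. Nothing in the labels shows that these arrays hold separate cultures, so p-values here cover array-to-array spread alone, which could be technical. The number of animals behind the cells is not given either.

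In the proteasome, alpha subunits form the outer rings that gate the core, and beta subunits form the inner rings, where PSMB5, PSMB6 and PSMB7 carry the chymotrypsin-like, caspase-like and trypsin-like active sites. The 19S particle binds the ends of the core, where its ATPases unfold substrates, its receptors bind ubiquitin chains and the deubiquitinase PSMD14 removes them. In mouse adipocytes the proteasome is known to turn over regulators of fat cell formation, among them PPARG.

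The probes behind the main values show which piece of each transcript was read. All are printed 5′ to 3′ as in the array's files, with coordinates on UMD3.1 from the array's annotation. Whole 60-base probes are given where the annotated span is longer than the probe, as it is across an exon junction, and 30 of the 60 bases otherwise. Capitals mark a polyadenylation signal (AATAAA or ATTAAA). The first 4 genes had the largest changes over culture, PSMA3 had the largest with retinoids, and PSMB2 and PSMD8 are shown with a second probe, as 2 of the 5 genes with both called and uncalled probes over culture.
PSMB6, chr19:27198664-27198723, minus strand: gcaggtacttctgggagaccagattcccaa
PSMB5, chr10:21663577-21663636, plus strand: ctctgatgcattgacctccatgtgttacca
PSMC4, chr18:49698975-49699034, plus strand: caggattgatttattcATTAAAcaaatatg
PSMD10, chrX:60966187-60966246, minus strand: ttagcttacaacttgctttccaggcattga
PSMA3, chr10:70822010-70822461, plus strand: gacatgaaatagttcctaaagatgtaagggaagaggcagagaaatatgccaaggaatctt
PSMB2 brightest probe, chr3:110756464-110756523, plus strand: cacatggttaattcagAATAAAgctgactg
PSMB2 second probe, chr3:110756349-110756408, plus strand: attgacagaaatggcatccatgacctggac
PSMD8 brightest probe, chr18:48457757-48457816, plus strand: ccccccacccccAATAAAgatggattgaca
PSMD8 junction probe, chr18:48453520-48454977, plus strand: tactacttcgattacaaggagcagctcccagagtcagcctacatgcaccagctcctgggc

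A level is the log2 of a probe's signal minus the log2 of that array's 75th percentile, and a gene is read by its brightest probe. A difference is one group's mean level minus another's, so a difference of -1 means a signal lower by 2-fold. Means are given ± SD (n = 3 arrays). A gene is called where the limma test, adjusted over all 17622 genes tested, gave a Benjamini-Hochberg adjusted p under 0.05. All 34 members passed the filter on dim probes. The brightest probe of each of them was well above background on all 12 arrays, so none entered through only 1 group.

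The 12 arrays were spread over 3 slides. All 9cRA arrays shared slide 3 with ATRA array 3, ATRA arrays 1 and 2 shared slide 2 with arrays 2 and 3 of the day 6 control, and array 1 of that control was on slide 1 beside the day 0 arrays. Control array 1 also held 110 of the 191 outlier spots left out and 103 spots marked non-uniform, against 0 to 2 on the other arrays, and had the smallest share of probes well above background (64.8%, against 68.7% to 74.0%). Proteasome genes moved together between arrays of the same group. In the day 6 control, array 1 had the highest level for 28 of the 34 members and array 3 the lowest for 33 of 34, where 35.1% and 34.2% of all tested genes did so. Among 9cRA arrays, array 1 had the lowest level for 31 of 34 members, against 40.4% of all tested genes. Members are therefore not independent of each other, and results that rest on these arrays are given with and without them.

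Of the stromal marker genes chosen to check the label, 9 of 9 were well above background in every group, while PECAM1, CDH5, ITGAM, MYF5 and PAX7 never reached that level on all 3 arrays of a group. The preadipocyte and stromal markers (PDGFRA, PDGFRB, THY1, DLK1, ENG, NT5E, COL1A1, PPARG and FABP4) were not stable. Their summed signal, relative to the 75th percentile, was 111.4 to 120.2 with ATRA and 109.7 to 119.2 with 9cRA. It was 187.8 to 200.9 in the day 6 control and 135.3 to 140.8 at day 0. Single stromal markers had differences from -1.89 to 4.34 over culture, from -4.94 to 1.38 with ATRA and from -4.64 to 1.29 with 9cRA. The summed signal of 5 leukocyte markers, relative to the 75th percentile, was 4.05 to 4.26 with ATRA and 3.80 to 4.21 with 9cRA, against 1.39 to 2.12 in the day 6 control and 1.90 to 2.22 at day 0. All 4 leukocyte markers that were tested rose with both retinoids, and ITGAM was well above background on 0 of the 12 arrays. The summed signal of 5 skeletal muscle markers was 19.3 to 19.7 with ATRA and 20.9 to 22.5 with 9cRA, against 41.9 to 46.8 in the day 6 control and 70.1 to 74.8 at day 0. Only DES, 1 of the 3 tested muscle markers, was called lower, with differences of -0.75 over culture, -1.31 with ATRA and -1.14 with 9cRA, while another DES probe was at 2.56 with ATRA and 2.60 with 9cRA. MYOD1 and MYOG had differences of 0.17 and 0.43 over culture, 0.25 and 0.21 with ATRA, and 0.32 and 0.04 with 9cRA, none of them called. That of 4 endothelial markers was 0.15 to 0.19 with ATRA and 0.14 to 0.24 with 9cRA, against 0.11 to 0.16 in the day 6 control and 0.05 to 0.06 at day 0. What part these markers had in the differences below was not tested. In bulk RNA, fewer cells of a type and less RNA per cell cannot be told apart.

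**Figure D1:**
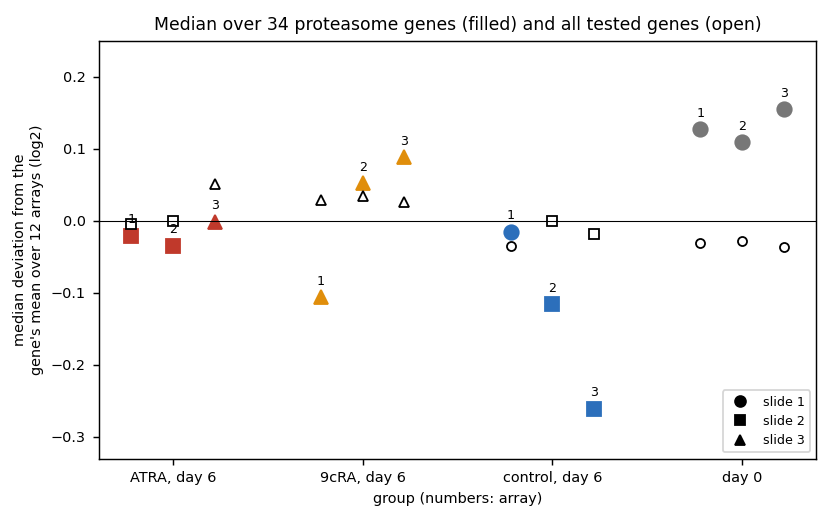
Median over the 34 proteasome genes (filled) and over all tested genes (open) of each gene's deviation from its mean over 12 arrays (y axis, log2), for each array by group (x axis), with symbols for the slide. The 3 day 0 arrays sit highest, at 0.11 to 0.16, and day 6 control array 3 lowest, at -0.26, while the medians of all tested genes stay between -0.04 and 0.05.

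The first comparison asks how the constitutive proteasome changed over 6 days of adipogenic culture without retinoid. Of the 34 genes, 21 fell and 1 rose in the day 6 control relative to day 0 (limma, Benjamini-Hochberg adjusted). Over all tested genes 31.3% were called lower and 31.0% higher, so the members' 61.8% lower stands above the background share and their 2.9% higher below it. The median difference of the members was -0.22, against 0.00 over all tested genes. The level on all 3 day 6 control arrays was below all 3 day 0 arrays for 23 members, where 34.7% of all tested genes did so. In the core 7 of 14 genes fell. Among the 19S genes, chaperones included, 14 of 20 fell and 1 rose, the chaperone PSMD10.

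The catalytic subunits PSMB5 and PSMB6 had the largest falls. PSMB6, the caspase-like subunit, had levels of 3.04, 2.82 and 2.55 on the day 6 control arrays, against 3.59, 3.52 and 3.62 on the day 0 arrays. Every day 6 control array was below every day 0 array, and the day 6 control arrays were spread more widely. The difference was -0.78 ± 0.12 (SE), a 1.71-fold lower signal (limma adjusted p = 0.00018). PSMB5, the chymotrypsin-like subunit, had levels of 3.69, 3.54 and 3.35 in the day 6 control, against 4.25, 4.26 and 4.20 at day 0. Its groups were separated by more than the range within either, with a difference of -0.71 ± 0.10 (limma adjusted p = 0.00013). PSMB7, the trypsin-like subunit, also fell, with levels of 4.95, 4.82 and 4.61 in the day 6 control, against 5.06, 5.02 and 5.13 at day 0. The day 6 control arrays lay just below the day 0 arrays, with a difference of -0.28 ± 0.09 (limma adjusted p = 0.023). The calls for PSMB5 and PSMB6 held under all 17 alternatives tried, and that for PSMB7 under 10 of them. In the alternative with slide as a block, only control array 1 shares a slide with day 0. Blocked differences over culture, here and below, therefore rest on that 1 array against the day 0 arrays. With slide as a block the differences were -0.55 for PSMB5 (limma adjusted p = 0.0081) and -0.54 for PSMB6 (limma adjusted p = 0.01), and PSMB7 was not called.

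The other beta subunits have no active site of their own. PSMB4 fell by 0.52 on the log2 scale, PSMB1 by 0.32 and PSMB3 by 0.30 (limma adjusted p = 0.00024, 0.012 and 0.01). PSMB2 had a difference of -0.11 and was not called, so 6 of 7 beta subunits fell (85.7%, against 31.3% of all genes). With slide as a block PSMB1 and PSMB3 were not called either (limma adjusted p = 0.34 and 0.3), which left 3 of 7 beta subunits called. In the alpha rings 1 of 7 subunits fell (14.3%). This was PSMA7, with levels of 4.41, 4.29 and 4.12 in the day 6 control, against 4.68, 4.76 and 4.70 at day 0. Its arrays did not overlap, and the difference was -0.44 ± 0.09 (limma adjusted p = 0.0016), though not with slide as a block, where the limma adjusted p was 0.054. The other alpha subunits had differences between -0.24 (PSMA2) and 0.01 (PSMA3) and were not called. Whether alpha and beta subunits differed from each other was not tested.

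Among the ATPases, which form a ring that pulls the substrate into the core, 5 of 6 fell (83.3%, against 31.3% of all genes). PSMC4 had levels of 3.13, 3.09 and 2.92 in the day 6 control, against 3.66, 3.71 and 3.79 at day 0. The groups lay far apart relative to their own ranges, and the difference of -0.67 ± 0.07 had a limma adjusted p of 1.5e-05. PSMC3 had levels of 3.39, 3.10 and 2.91 in the day 6 control, against 3.63, 3.70 and 3.69 at day 0, a difference of -0.54 ± 0.12 (limma adjusted p = 0.0026). The control arrays of PSMC3 were again lower throughout but widely spread, and slide as a block took the call away (limma adjusted p = 0.084). PSMC5 fell by 0.50 and PSMC1 by 0.35, both kept under all 17 alternatives. PSMC2 had a difference of -0.17 whose call was kept under 3 of them, and PSMC6 was not called.

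Of the non-ATPase subunits 7 of 11 fell (63.6%, against 31.3% of all genes). PSMD13, a lid subunit, had a difference of -0.52 ± 0.07 (limma adjusted p = 7.8e-05), and PSMD6, also of the lid, one of -0.35 ± 0.05 (limma adjusted p = 0.00014). Both calls held under all 17 alternatives. The scaffold subunits PSMD1 and PSMD2 fell by 0.22 and 0.21, PSMD3 by 0.19 and PSMD12 by 0.20. With slide as a block PSMD1 was still called, and PSMD2, PSMD3 and PSMD12 were not (limma adjusted p = 0.12, 0.072 and 0.23). The deubiquitinase PSMD14 had a difference of -0.21 whose call held under 4 of the 17 alternatives. PSMD4, a ubiquitin receptor, had the widest 95% interval of the 34 genes, with a difference of -0.16 and bounds of -0.56 and 0.24. PSMD7, PSMD8 and PSMD11 were not called either.

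The base chaperones split. PSMD10, known as gankyrin, had levels of 1.17, 1.06 and 0.88 in the day 6 control, against 0.02, 0.06 and 0.19 at day 0. All control arrays were far above the day 0 arrays. The difference was 0.95 ± 0.08, a 1.93-fold higher signal (limma adjusted p = 2.1e-06), and it was 1.08 with slide as a block. PSMD5 fell by 0.35 (limma adjusted p = 0.00072) under all 17 alternatives, and PSMD9 had a difference of -0.18 whose call was kept under 5.

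**Figure D2:**
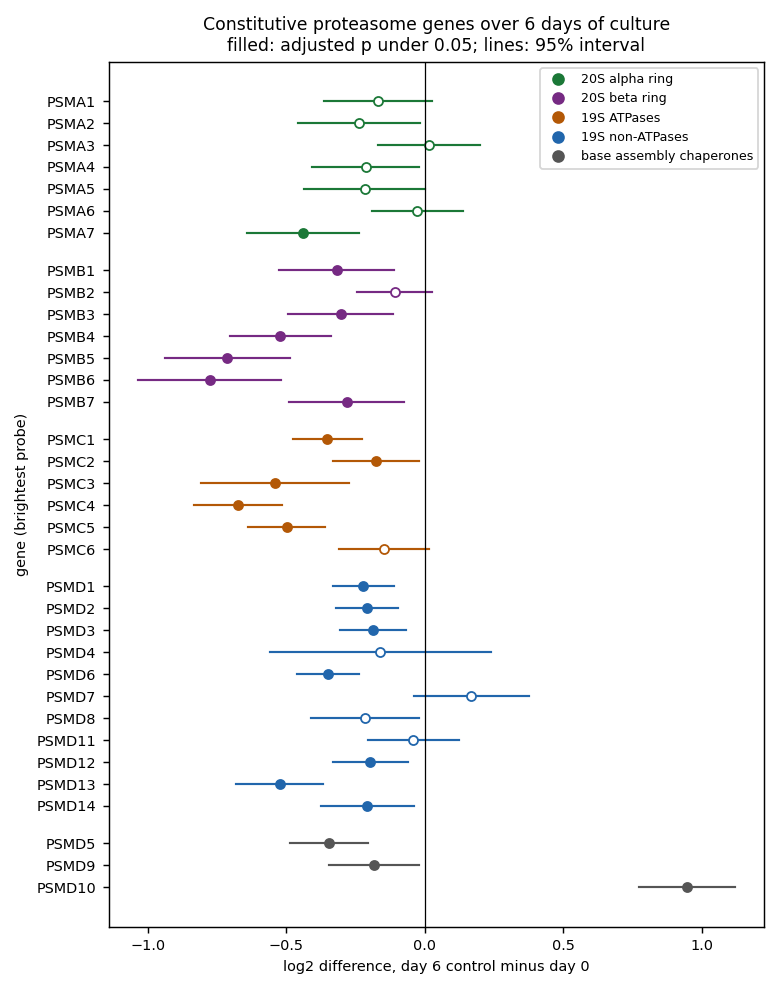
Log2 difference of the day 6 control minus day 0 (x axis) for the 34 genes (y axis), coloured by role. Points are limma estimates from 3 arrays a group, lines are 95% intervals and filled points have an adjusted p under 0.05; 31 of the 34 points lie below 0, from -0.78 (PSMB6), and PSMD10 stands alone at 0.95.

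The size of the fall depended on which day 6 control arrays were used, and array 1 was the only one on the slide of the day 0 arrays. Within slide 1, this array against the 3 day 0 arrays, the members' median difference was -0.13 and 27 of 34 were below 0, against a median of -0.03 over all tested genes. The fit with slide as a block takes its culture differences from this same contrast, so it is not a separate check. With slide as a block 10 members fell and 1 rose. The 29.4% lower is close to the 28.2% of all genes lower in that fit, so with the block the members' share of falls does not stand out. Without that array 27 fell and 1 rose, with a median of -0.29 (79.4% of members lower, against 31.0% of all genes). Without control array 3 16 fell and 1 rose, with a median of -0.16 (47.1% lower, against 29.5%). Scaling the arrays by quantiles gave 13 lower and 3 higher (38.2% lower, against 30.9%). The 9 falls kept under all 17 alternatives were those of PSMB4, PSMB5, PSMB6, PSMC1, PSMC4, PSMC5, PSMD5, PSMD6 and PSMD13.

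**Figure D3:**
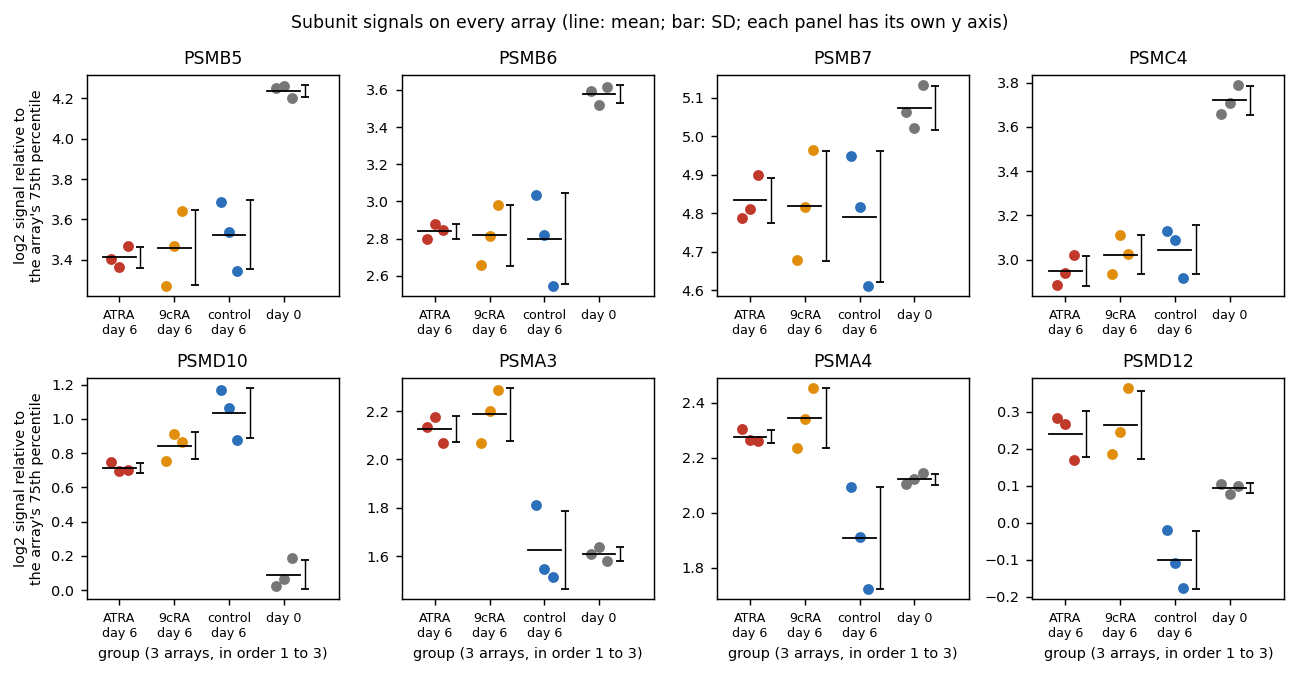
Level (log2 signal relative to the array's 75th percentile, y axis) of 8 member genes on each of the 3 arrays of ATRA, 9cRA, day 6 control and day 0 (x axis), with the mean as a line and the SD as a bar. For PSMB5, PSMB6 and PSMC4 all 9 day 6 arrays are below the day 0 arrays, for PSMD10 they are above, and for PSMA3, PSMA4 and PSMD12 the retinoid arrays are the highest.

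The second comparison asks what ATRA changed relative to the day 6 control. Of the 34 genes 9 rose and 2 fell (limma, Benjamini-Hochberg adjusted), or 26.5% and 5.9%. Over all tested genes 23.7% were called higher and 22.4% lower, so the share of members that rose was near the background. All ATRA arrays lay above all control arrays for 12 members and below them for 2, where 28.7% and 25.2% of all tested genes did so. The members' median difference was 0.06, against 0.05 over all tested genes. The third comparison sets 9cRA against the same control arrays. Here 11 members rose and 0 fell, or 32.4% and 0.0%, where 24.8% of all tested genes were called higher and 21.8% lower. The 9cRA arrays lay wholly above the control arrays for 10 members and wholly below for 0, where 30.2% and 24.2% of all tested genes did so. The median was 0.13 for the members and 0.06 over all tested genes. Since both comparisons share the control arrays, their values are set side by side and no overlap between them is counted as a result.

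The alpha subunits PSMA3, PSMA4 and PSMA2 led both comparisons, though PSMD12 exceeded PSMA2 with ATRA. PSMA3 had levels of 2.13, 2.17 and 2.07 with ATRA and 2.07, 2.20 and 2.29 with 9cRA, against 1.81, 1.55 and 1.52 in the day 6 control. All retinoid arrays were above all control arrays, of which array 1 was the highest. The difference was 0.50 ± 0.08 with ATRA (limma adjusted p = 0.00065) and 0.56 ± 0.08 with 9cRA (limma adjusted p = 0.00031). PSMA4 had levels of 2.30, 2.26 and 2.26 with ATRA and 2.24, 2.34 and 2.45 with 9cRA, against 2.09, 1.91 and 1.72 in the day 6 control. Again no retinoid array overlapped the control, with differences of 0.37 ± 0.09 for ATRA (limma adjusted p = 0.0059) and 0.43 ± 0.09 for 9cRA (limma adjusted p = 0.0023). PSMA2 was 0.31 higher with ATRA (limma adjusted p = 0.026) and 0.38 higher with 9cRA (limma adjusted p = 0.0099). Its calls were kept under 10 of the 17 alternatives with ATRA and 16 with 9cRA. The other alpha subunits were not called with either retinoid.

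With ATRA 0 of 7 beta subunits were called by limma, against 23.7% of all genes higher and 22.4% lower, and 1 had an unadjusted p under 0.05. This count was 2 with quantile or cyclic loess normalization or without control array 1, and 1 with another background correction. In those fits 21.1% to 26.9% of all genes were called higher and 21.1% to 23.6% lower. With 9cRA 2 of 7 rose (28.6%), a share near the 24.8% of all genes. PSMB3 rose by 0.23 and PSMB2 by 0.16, calls that were each lost under 11 of the 17 alternatives. PSMB5 had levels of 3.40, 3.37 and 3.47 with ATRA and 3.27, 3.47 and 3.64 with 9cRA, against 3.69, 3.54 and 3.35 in the day 6 control. These ranges overlapped, and the differences of -0.11 with ATRA and -0.06 with 9cRA had limma adjusted p values of 0.39 and 0.62. For PSMB6 the difference was 0.04 with ATRA, with a 95% interval of -0.22 to 0.30, and 0.02 with 9cRA, with an interval of -0.24 to 0.28. For PSMB7 it was 0.04 with ATRA and 0.03 with 9cRA, neither of them called. None of these 3 catalytic genes had an unadjusted p under 0.05 with either retinoid.

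In the regulatory particle 6 genes rose and 2 fell with ATRA (30.0% and 10.0%, against 23.7% and 22.4% of all genes). With 9cRA 6 rose (30.0%, against 24.8%), so both shares of rises were near those of all genes. PSMD12, a lid subunit, had levels of 0.28, 0.27 and 0.17 with ATRA and 0.19, 0.24 and 0.37 with 9cRA, against -0.02, -0.11 and -0.18 in the day 6 control. The retinoid arrays were all higher, with differences of 0.34 ± 0.06 for ATRA (limma adjusted p = 0.001) and 0.37 ± 0.06 for 9cRA (limma adjusted p = 0.00067). PSMD2 was 0.29 higher with ATRA (limma adjusted p = 0.0008) and 0.26 higher with 9cRA (limma adjusted p = 0.0017). PSMD3 was 0.26 higher with ATRA (limma adjusted p = 0.0026) and 0.21 higher with 9cRA (limma adjusted p = 0.0085). A dimmer PSMD3 probe was at 0.17 with ATRA, not called, and at 0.31 with 9cRA (limma adjusted p = 0.25 and 0.047). PSMD1 rose by 0.15 with ATRA and 0.18 with 9cRA at its brightest probe, while its other probes were not called with either. Its calls were kept under 6 of the 17 alternatives with ATRA and 12 with 9cRA. Of the ATPases, PSMC1 rose by 0.19 with ATRA and 0.23 with 9cRA, calls kept under 12 and 14 alternatives. PSMC2 rose by 0.20 with ATRA, a call kept under 8, and had a difference of 0.15 with 9cRA that was not called. PSMC6 rose by 0.25 with 9cRA, a call kept under 12, and had a difference of 0.09 with ATRA that was not called. The other PSMC1 probe, at 0.19 with ATRA and 0.09 with 9cRA, was not called with either (limma adjusted p = 0.21 and 0.53).

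PSMD10 and PSMD14 fell with ATRA. PSMD10 had levels of 0.75, 0.70 and 0.70 with ATRA and 0.75, 0.91 and 0.86 with 9cRA, against 1.17, 1.06 and 0.88 in the day 6 control. The ATRA arrays were all below the control arrays, and the 9cRA arrays overlapped them. The difference was -0.32 ± 0.08 with ATRA (limma adjusted p = 0.0065) and -0.19 ± 0.08 with 9cRA (limma adjusted p = 0.065). All 6 retinoid arrays stayed above the day 0 arrays, the highest of which was at 0.19. PSMD14 was 0.24 lower with ATRA on the log2 scale (difference -0.24, limma adjusted p = 0.026), and had a difference of -0.10 with 9cRA that was not called. With slide as a block PSMD10 had a difference of -0.25 with ATRA (limma adjusted p = 0.052) and neither difference was called. The other PSMD14 probe was at -0.22 with ATRA and was not called (limma adjusted p = 0.067).

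**Figure D4:**
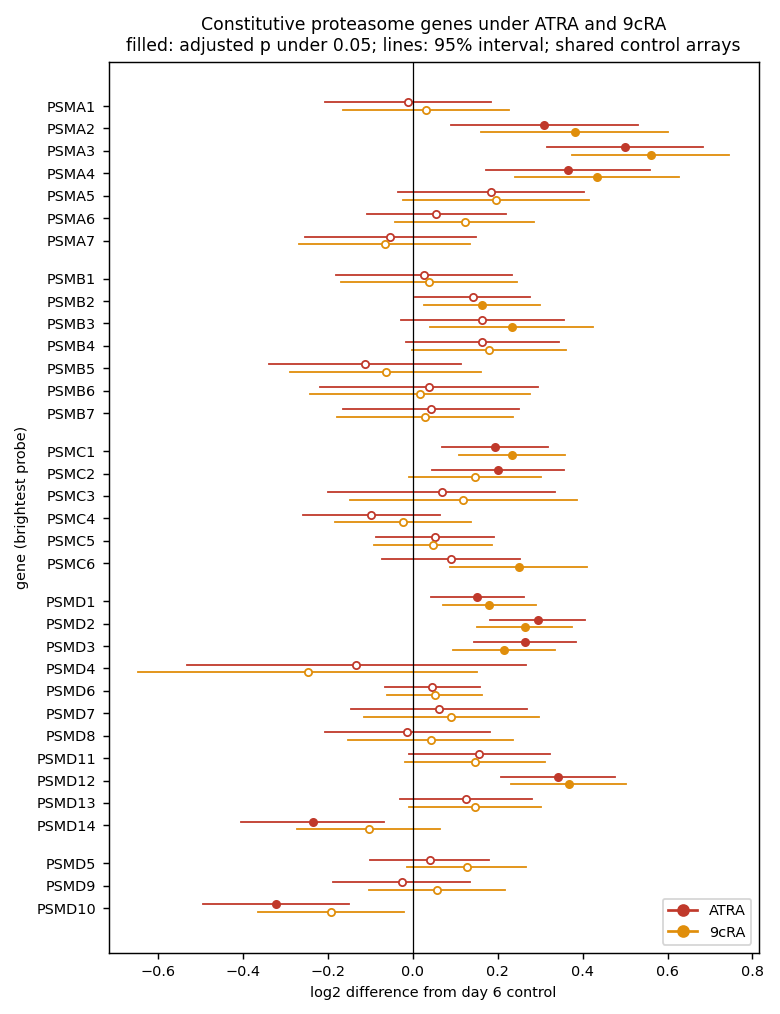
Log2 difference from the day 6 control (x axis) under ATRA and under 9cRA for the 34 genes (y axis), with 95% intervals and filled points where the adjusted p is under 0.05. Both comparisons share the control arrays. PSMA3 lies furthest right, at 0.50 with ATRA and 0.56 with 9cRA, and the intervals of PSMB5, PSMB6 and PSMB7 span 0 for both.

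Calls kept under all 17 alternatives were those of PSMA3, PSMA4, PSMD2, PSMD3 and PSMD12 for ATRA and those of PSMA3, PSMA4, PSMD2 and PSMD12 for 9cRA. On slide 2, which held ATRA arrays 1 and 2 and control arrays 2 and 3, the members' median difference was 0.14, with 28 of 34 above 0, against 0.02 over all tested genes. The ATRA differences with slide as a block come from this same contrast. No slide held both 9cRA and control arrays, and with slide as a block, linked through the ATRA arrays, 5 members rose with 9cRA (14.7%, against 10.3% of all genes). Without day 6 control array 3 members called were 6 higher and 2 lower for ATRA, and 8 higher and 1 lower for 9cRA. The shares higher were then 17.6% and 23.5% of members, below the 23.6% and 24.4% of all genes. Without 9cRA array 1, 13 members rose with 9cRA (38.2%), and the members' median was 0.175, against 0.055 over all tested genes. Leaving out 9cRA array 2 gave 9 higher (26.5%, against 19.3% of all genes). With 9cRA array 3 left out, the highest for 25 of the 34 members, 8 rose and 1 fell. The 23.5% higher was then near the 22.2% of all genes. Without ATRA array 1 or without ATRA array 2, 7 members were called for ATRA. Of these, 6 and 5 were higher (17.6% and 14.7%, against 22.9% and 20.1% of all genes). With ATRA array 3 left out, 7 were higher and 1 lower (20.6% higher, against 19.2%). The members' median for ATRA was 0.13 without day 6 control array 1 and 0.02 without control array 3. That for 9cRA was 0.16 without control array 1 and 0.06 without control array 3.

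The fourth comparison sets ATRA against 9cRA, which differ in the geometry of a double bond, at the same dose and time. By limma 0 of 34 members were called, and 0 had an unadjusted p under 0.05, where 0.119% of all tested genes were called. The differences, ATRA minus 9cRA, lay between -0.16 (PSMC6) and 0.11 (PSMD4), with a median of -0.03. The 95% intervals bound what these arrays could show. For PSMA3 the difference was -0.06, with an interval of -0.25 to 0.12, and for PSMB5 it was -0.05, with an interval of -0.27 to 0.18. For PSMC6 it was -0.16, with an interval of -0.32 to 0.00, and for PSMD10 it was -0.13, with an interval of -0.30 to 0.04. PSMD10 was the only member whose ATRA and 9cRA arrays did not overlap, a share below that of all tested genes (8.21% were lower in this way). The gap was small, with the highest ATRA array at 0.749 and the lowest 9cRA array at 0.755.

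Separate probes of the same gene were also fitted one by one. Of 66 member probes tested, 40 were called lower and 1 higher over culture (33.1% and 28.6% of all probes tested), and among the 32 that were not the brightest 21 were lower and 0 higher. Not all of these are separate readings. The PSMC4 probes have the same sequence, and pairs of PSMA5, PSMA7, PSMD4 and PSMD8 probes overlap over most of their length. The 21 genes with more than 1 tested probe had no pair of probes called in opposite directions in any of the 4 comparisons. PSMB2 had a difference of -0.35 at its second probe (limma adjusted p = 0.0039), against -0.11 at the brightest one, which holds the polyadenylation signal (limma adjusted p = 0.16). PSMD8 had a difference of -0.48 at the junction probe (limma adjusted p = 0.0018), against -0.21 at the brightest (limma adjusted p = 0.057). PSMA5 was not called by its brightest probe, while its second probe was called in 3 comparisons. The second probe is placed 1 base further along and also differs from the brightest at several bases. Over culture the second probe was at -0.25 and the brightest at -0.22 (limma adjusted p = 0.014 and 0.08). With ATRA they were at 0.23 and 0.19 (limma adjusted p = 0.028 and 0.16), and with 9cRA the second was at 0.24 (limma adjusted p = 0.021). PSMC3 had -0.92 at its second probe, against -0.54. PSMA4 alone had probes of both signs, -0.21 and 0.17, and neither was called. The second probe of PSMB6, with a difference of -1.02, is annotated on the opposite strand to the brightest one, so it need not read the same transcript. Of the 66 probes 13 hold AATAAA or ATTAAA, and 7 of these 13 were lower over culture, against 33 of the 53 without either. With ATRA 0 of the 13 were called, by the same limma fit, against 12 higher and 2 lower of the 53 (21.9% and 21.6% of all probes tested). The probes without a signal in the same genes as these 13 were not called with ATRA either. Whether this contrast follows the signal or the genes that hold it was not tested.

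**Figure D5:**
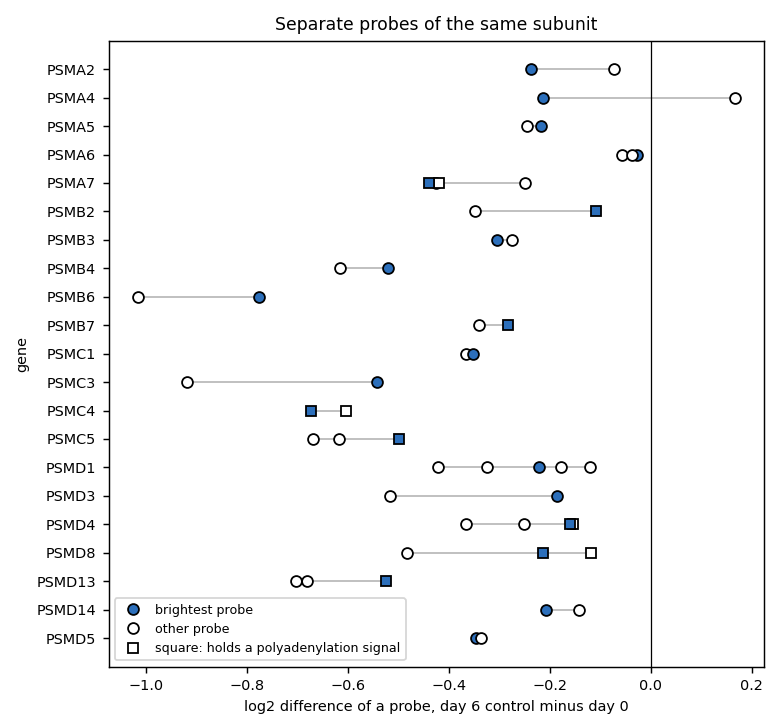
Log2 difference of the day 6 control minus day 0 (x axis) for each tested probe of the 21 genes with more than 1 tested probe (y axis), the brightest probe filled and probes with a polyadenylation signal as squares. For PSMB2 and PSMD8 the brightest probe is a square and lies nearer 0 than a probe elsewhere in the gene, and PSMA4 has probes on both sides of 0.

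The members lie on 16 chromosomes, 6 of them on chromosome 19. Genes that work with the proteasome give context, from lists chosen by function. Of 6 assembly factors 4 fell over culture (66.7%, against 31.3% of all genes), with a median difference of -0.24 against 0.00 over all genes, led by POMP, which matures the core (-0.76, limma adjusted p = 2.3e-05), and PSMG3, a chaperone of the alpha ring (-0.73, limma adjusted p = 0.00041). None of the 6 was called with either retinoid, and 1 had an unadjusted p under 0.05 in each comparison. Of 5 caps and inhibitors tested, PSME1 fell by 1.49, PSME2 by 0.86 and PSMF1 by 0.64 over culture. With ATRA PSME1 rose by 0.90, PSME2 by 0.60 and PSMF1 by 0.14, and with 9cRA they rose by 0.90, 0.67 and 0.19. The interferon-inducible counterparts of the catalytic subunits moved further than any constitutive member, with differences of -2.32 for PSMB8, -2.06 for PSMB9 and -3.59 for PSMB10 over culture. With ATRA these were 2.74, 0.80 and 4.50 higher, and with 9cRA 2.69, 0.68 and 4.46 higher.

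Of 12 ubiquitin receptors, deubiquitinases and shuttle factors 4 fell over culture (33.3%, close to the 31.3% of all genes), among them ADRM1, a ubiquitin receptor (-0.40), and UCHL5, a deubiquitinase bound to it (-0.37). Another UCHL5 probe was at 0.15 over culture. By its brightest probe the deubiquitinase USP14 fell by 0.25 with ATRA and by 0.24 with 9cRA, while another of its probes was at 0.30 and 0.27, and the ligase UBE3C rose by 0.38 with ATRA and 0.35 with 9cRA, with its lowest probe at 0.03 and 0.04. Of 7 regulators of proteasome gene expression or nuclear import, all were called with each retinoid by their brightest probes, 5 higher and 2 lower (71.4% and 28.6%). Over all genes 23.7% were higher and 22.4% lower with ATRA, and 24.8% and 21.8% with 9cRA. The regulators' median difference was 0.39 with ATRA and 0.38 with 9cRA, against 0.05 and 0.06 over all tested genes. Another probe of the regulator NFYC was at 0.03 with ATRA and 0.01 with 9cRA. For NFYB, which was called lower, another probe was at 0.07 with ATRA. NFE2L1, which induces proteasome genes, rose by 0.39 with ATRA and 0.38 with 9cRA, and NFE2L2 by 0.85 with ATRA and 0.61 with 9cRA. AKIRIN2, which brings proteasomes into the nucleus of human cells, rose by 0.61 with ATRA and 0.74 with 9cRA, and fell by 0.47 over culture. NGLY1, the enzyme that activates NFE2L1, fell by 0.40 with ATRA and by 0.31 with 9cRA, with its highest probe at 0.01 and -0.11. Of 9 genes of ubiquitin supply, activation and extraction 6 fell over culture (66.7%, against 31.3% of all genes), among them VCP, the segregase that delivers substrates (-0.33, limma adjusted p = 0.00013). With ATRA 3 of these 9 rose and 1 fell (33.3% and 11.1%), and with 9cRA 2 rose and 1 fell (22.2% and 11.1%), against 23.7% and 22.4% of all genes with ATRA and 24.8% and 21.8% with 9cRA. UBA6, an activating enzyme, had a difference of -0.35 with ATRA at its brightest probe and 0.01 at another.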

How the data were processed

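RNA of 4 groups was measured on 12 one-colour (Cy3) bovine arrays, 3 a group, from 100 ng of total RNA amplified from a poly-dT primer, per the labels' protocols. The authors deposited spot intensity from Feature Extraction 10.7.3.1, background-subtracted and not normalized between arrays, per the file headers. The authors also deposited log2 values, 1 column a group. Set against the arrays, these were group means of log2 signal minus the 75th percentile, with the median of each probe over the 12 arrays taken off (median absolute differences 0.0025 to 0.0028, correlations 0.935 to 0.992, column medians 0.01, 0.02, -0.01 and 0.01 for ATRA, 9cRA, day 6 control and day 0); they served as an alternative.

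Control spots and 191 outlier spots of 525636 were left out, and 0 spots were saturated. The 75th percentile signal was 1094 to 1359, and 64.8% to 74.0% of probes were well above background on an array. Repeat spots were averaged and each gene took its brightest probe. A gene had to be well above background on every array of 1 group or more, and was tested with limma 3.58.1 in R 4.3.3 (lmFit and eBayes over all 12 arrays, two-sided), with Benjamini-Hochberg adjustment in each comparison. The fit was tested on simulated data. The number of arrays limits the precision. Probe names come from the files, updated through a RefSeq gene table used for names only, and no member changed name. Cross-hybridisation to related copies was not analysed here.

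The rule for named genes took PSMB5, PSMB6, PSMB7 and, per comparison, the 4 called members with the largest increases and the 4 with the largest decreases, and of other lists at most 4 members by smallest adjusted p. Other members are described in their role groups, and some genes of the other lists (ADRM1 and UCHL5 among them) were chosen after their values were seen. The members and lists were chosen with earlier results of these data known. A planned search of promoters was not run. Array numbers were not taken to pair arrays: same-numbered arrays correlated at -0.20 to 0.10 in their deviations from group means.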

Additional observations from a re-analysis of the deposited data

How the results depend on the processing

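Counts are of the 34 members called, and percentages in brackets are shares of all tested genes called in the same fit. Over culture 22 were called (62.3%), with a median of -0.216. Slide as a block gave 11 called (53.6%) and a median of -0.127. The median was -0.285 with arrays divided by their medians, -0.114 with quantile and -0.129 with cyclic loess normalization. Leaving out 1 array gave 17 to 28 called (56.6% to 65.2%) and medians of -0.29 to -0.16. For ATRA 11 were called (46.1%). The count was 7 with arrays divided by their medians (43.4%) and 6 with only the arrays of both groups in the fit (37.0%). It was 7 (42.7%) with array number as a replicate block, though array numbers do not pair the arrays. The ATRA median, 0.064, was 0.14 with slide as a block. For ATRA, leaving out 1 array gave 7 to 13 called (39.3% to 46.3%) and medians of 0.015 to 0.131. For 9cRA 11 were called (46.6%). The count was 6 with arrays divided by their medians (43.8%) and 6 with only the arrays of both groups (37.6%). It was 7 with the mean of a gene's probes (45.5%). With slide as a block linked through the ATRA arrays (chosen after seeing the data) it was 5 (23.1%). Leaving out 1 array gave 9 to 15 called (37.9% to 46.0%) and medians of 0.055 to 0.175. For ATRA against 9cRA it gave 0 called and medians of -0.08 to 0.007, and 0 were called under every alternative. The replicate block gave 19 called over culture (60.1%) and 9 for 9cRA (43.1%). PSMA6 over culture had a difference of 0.155 with quantile normalization, against -0.03, with the sign turned round. Dividing by the median shifted the median of all genes to -0.065 over culture, and made 42.5% of ATRA calls higher, against 51.5%. The causes of these changes were not tested. In the probe-by-probe fit (also chosen after seeing the data), the brightest probes gave 20 calls over culture. Of these 19 were lower, where 33.1% of all probes tested were called lower.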
